A study of Mus musculus with 8 samples.

Results

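Occupancy by NANOG and BRG1, and the histone marks H3K27ac and H3K4me1, were described at 6 mouse genes: Thbd, Dab2, Mgat5b, Prmt8, Olig3 and Foxb1. Each locus was the gene body in the GENCODE annotation of build mm10 with 20 kb on each side, and all peaks that fell there were taken from 8 lists. The 6 genes are 6 of 21938 protein-coding genes on the standard chromosomes, and their peaks formed 43 of the 123412 merged regions of the genome. The genes were chosen by the study with measurements of these cells in view. Dab2 and Thbd were discussed there as somatic genes. Mgat5b and Prmt8 stand in its track view of genes whose expression rose with the fusion protein. Those genes were also selected on NANOG and BRG1 binding in these same libraries and on opening of their chromatin. Olig3 and Foxb1 were selected from genes whose chromatin opened and whose expression rose with the fusion protein. Differences at the 6 loci are therefore descriptions, and they support nothing about the fusion beyond these loci.

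The cells were mouse embryonic fibroblasts (MEFs) from OG2 mice, which carry a green fluorescent protein reporter under Oct4 control, collected at day 5 of reprogramming. All received Oct4 by retrovirus and were kept in iCD3 medium. One arm also received Nanog (Nanog+Oct4 in the labels, NanogWT here), and the other received NanogN70 (NanogN70+Oct4 in the labels, NanogBiD here), in which the BRG1-interacting domain of SS18 is fused to the N-terminus of NANOG. That NanogN70 is NanogBiD was inferred from the description of the fusion in the study, whose main text does not use the name NanogN70. The method was CUT&Tag, in which an antibody tethers a transposase that tags the DNA around its target, with antibodies to FLAG (the tag on NANOG), BRG1 (Smarca4 in the labels), H3K27ac and H3K4me1. The 4 targets in 2 arms gave 8 groups with 1 merged library each. The study's replicates were merged before peaks were called, so no difference between arms could be set against the spread between cultures, and all intervals cover counting error only.

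NANOG is a homeodomain factor of the pluripotency network, and BRG1 is the ATPase of the BAF complexes, which move and evict nucleosomes. H3K4me1 marks enhancers in both poised and active states, whereas H3K27ac marks active enhancers and promoters. Thbd encodes thrombomodulin, the endothelial receptor that turns thrombin from clotting towards activation of protein C, and Dab2 encodes an endocytic adaptor that links cell-surface receptors to clathrin. Mgat5b encodes an N-acetylglucosaminyltransferase that branches O-mannosyl glycans in the brain, and Prmt8 encodes a membrane-anchored arginine methyltransferase of neurons. Olig3, a basic helix-loop-helix factor, and Foxb1, a forkhead factor, act in progenitors of the developing nervous system.

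The sequences under the FLAG summits that the loci turn on are shown first. They are the highest FLAG summit at a locus in either arm, and the FLAG summits of regions where FLAG and BRG1 had a peak in NanogBiD alone. A summit in an Mgat5b intron was added after its values were seen, because its FLAG and H3K27ac ratios between arms were the highest among shared regions, and the NanogBiD summit 5 kb upstream of Mgat5b was added to set beside the NanogWT one. Each is a stretch of 101 bases centred on the summit, on the plus strand of mm10. Capitals mark a match to one of the motifs searched, which were AP-1 (TGAGTCA or TGACTCA), the OCT octamer (ATGCAAAT), SOX (ACAATG or ACAAAG), TEAD (GGAATG), RUNX (TGTGGTT) and the NANOG homeodomain core (TAATGG), on both strands. The highest FLAG summits of Dab2 and Foxb1 lay in untranslated exons and are not shown, and Olig3 had no FLAG peak.
Thbd, NanogBiD, chr2:148409273-148409373, intergenic, 1.14 kb upstream of the start site: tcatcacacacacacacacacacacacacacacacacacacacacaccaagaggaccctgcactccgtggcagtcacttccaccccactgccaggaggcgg
Dab2, NanogBiD, chr15:6411375-6411475, intron, 112 kb downstream: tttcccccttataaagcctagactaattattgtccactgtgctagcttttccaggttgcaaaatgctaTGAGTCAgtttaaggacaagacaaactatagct
Mgat5b, NanogWT, chr11:116913671-116913771, intergenic, 5.14 kb upstream: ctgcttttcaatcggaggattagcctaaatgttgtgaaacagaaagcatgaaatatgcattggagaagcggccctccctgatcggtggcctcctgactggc
Mgat5b, NanogBiD, chr11:116913840-116913940, intergenic, 4.97 kb upstream, the same region in the other arm: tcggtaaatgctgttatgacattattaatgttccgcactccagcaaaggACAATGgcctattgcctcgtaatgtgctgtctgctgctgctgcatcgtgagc
Mgat5b, NanogBiD, chr11:116940652-116940752, intron, 21.8 kb downstream: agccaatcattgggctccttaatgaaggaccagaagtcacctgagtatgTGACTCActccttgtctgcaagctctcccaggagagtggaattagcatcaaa
Mgat5b, NanogBiD, chr11:116988465-116988565, intergenic, 69.7 kb downstream: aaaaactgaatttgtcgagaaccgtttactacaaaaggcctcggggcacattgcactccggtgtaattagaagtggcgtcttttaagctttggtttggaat
Prmt8, NanogBiD, chr6:127707665-127707765, intron, 61.8 kb downstream: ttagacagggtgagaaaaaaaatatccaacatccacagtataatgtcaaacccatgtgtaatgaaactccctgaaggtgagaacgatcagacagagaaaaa

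A peak is given by the height of its summit, the number of tags piled up there as the authors deposited it, not scaled to depth. The 8 lists held from 30859 to 74782 peaks, with median heights of 13 to 16 tags and the lowest called summit at 6 to 8 tags, so a difference between a low peak and none is small in tags. The depth of the libraries is unknown. The whole FLAG list of NanogBiD was 1.27 times as long as that of NanogWT, the BRG1 list 1.74 times, the H3K27ac list 1.20 times and the H3K4me1 list 0.791 times. The percentage of a list with a summit as high or higher is given beside some heights, as the rank of that summit within its own library.

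Across the 6 loci, FLAG peaks were more numerous in NanogBiD, BRG1 peaks were equal in number, and H3K4me1 peaks were fewer. NanogWT had 17 FLAG peaks and NanogBiD had 25, which is 1.47 times as many (95% interval 0.763 to 2.90). BRG1 had 10 in each arm (interval of the ratio 0.374 to 2.68). H3K27ac had 10 and 13 (1.30, 0.527 to 3.31), and H3K4me1 had 25 and 18 (0.720, 0.370 to 1.37). All 4 intervals include 1, and each held the ratio of its whole list. The order depended on how strict the peak lists were and on the width of the windows. With scores of at least 100, BRG1 had 4 and 8 peaks (ratio 2.0) and FLAG 8 and 13 (1.62), and in windows of 50 kb BRG1 had 11 and 18 (1.64). With every list cut to its top 20000 peaks, FLAG had 5 in each arm, BRG1 had 7 and 6 (0.857), H3K27ac had 3 and 6 (2.0), and H3K4me1 turned to more in NanogBiD, 6 and 8 (1.33).

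**Figure D1:**
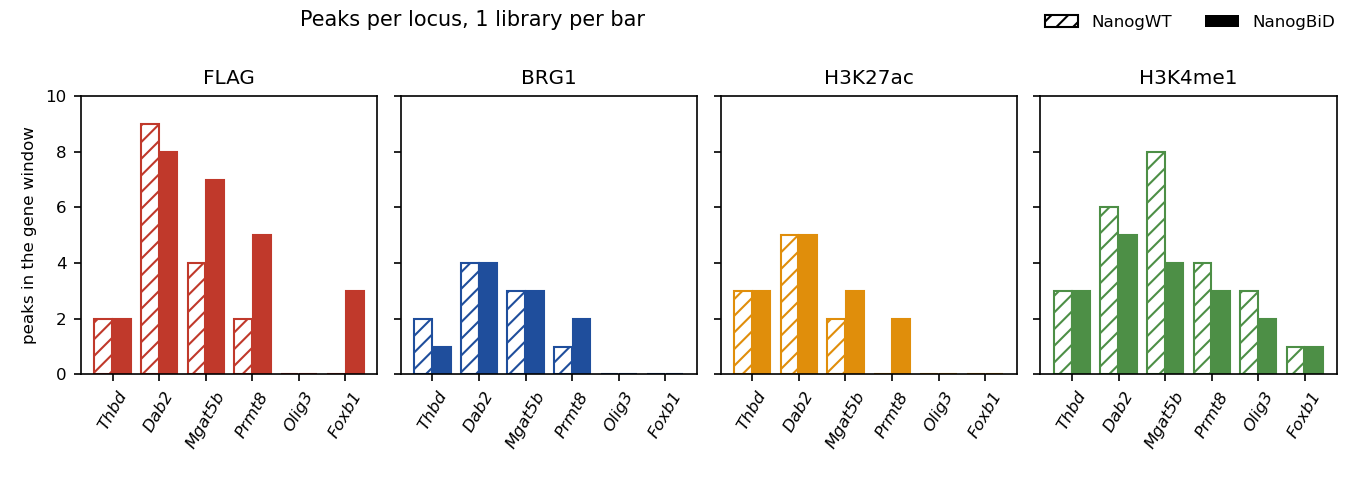
Number of peaks (y axis) in the window of each gene (x axis) for the 4 targets, with hatched bars for NanogWT and filled bars for NanogBiD, each bar from 1 library. FLAG bars are taller in NanogBiD at Mgat5b (4 and 7), Prmt8 (2 and 5) and Foxb1 (0 and 3), while no FLAG, BRG1 or H3K27ac bar stands at Olig3.

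By locus, FLAG peaks were more in NanogBiD at Mgat5b, Prmt8 and Foxb1 and fewer at Dab2 (9 and 8), that is more at 3 and fewer at 1 of the 6, where 40.9% and 14.4% of all gene windows did the same. BRG1 peaks were more at Prmt8 alone and fewer at Thbd alone, against 42.1% and 10.1% of gene windows. H3K27ac peaks were more at Mgat5b and Prmt8 and fewer at none, against 29.1% and 13.5%. H3K4me1 peaks were more at none and fewer at Dab2, Mgat5b, Prmt8 and Olig3, against 16.3% and 42.5%. These directions hold for all called peaks in windows of 20 kb and changed in other settings. With scores of at least 100, BRG1 was more at Dab2 (1 and 3) and Mgat5b (0 and 3) and equal at Prmt8 (1 and 1), FLAG was equal at Dab2 (6 and 6), and H3K27ac was more at Dab2 (3 and 4) and equal at Mgat5b (2 and 2). In windows of 50 kb BRG1 was more at Thbd (2 and 3). Foxb1 had 0 and 0 FLAG peaks with scores of at least 100. Among the top 20000 peaks of each list FLAG was 0 and 0 at Prmt8 and Foxb1, and more at Mgat5b (1 and 2). H3K4me1 at Mgat5b turned to more in NanogBiD, 1 and 3, both with scores of at least 100 and among the top 20000, and among the top 20000 no locus had fewer H3K4me1 peaks in NanogBiD. The windows differed in length, from 42.1 kb for Olig3 to 181 kb for Dab2, with a median of 57.4 kb over all coding genes, so counts are compared between arms and not between genes.

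**Figure D2:**
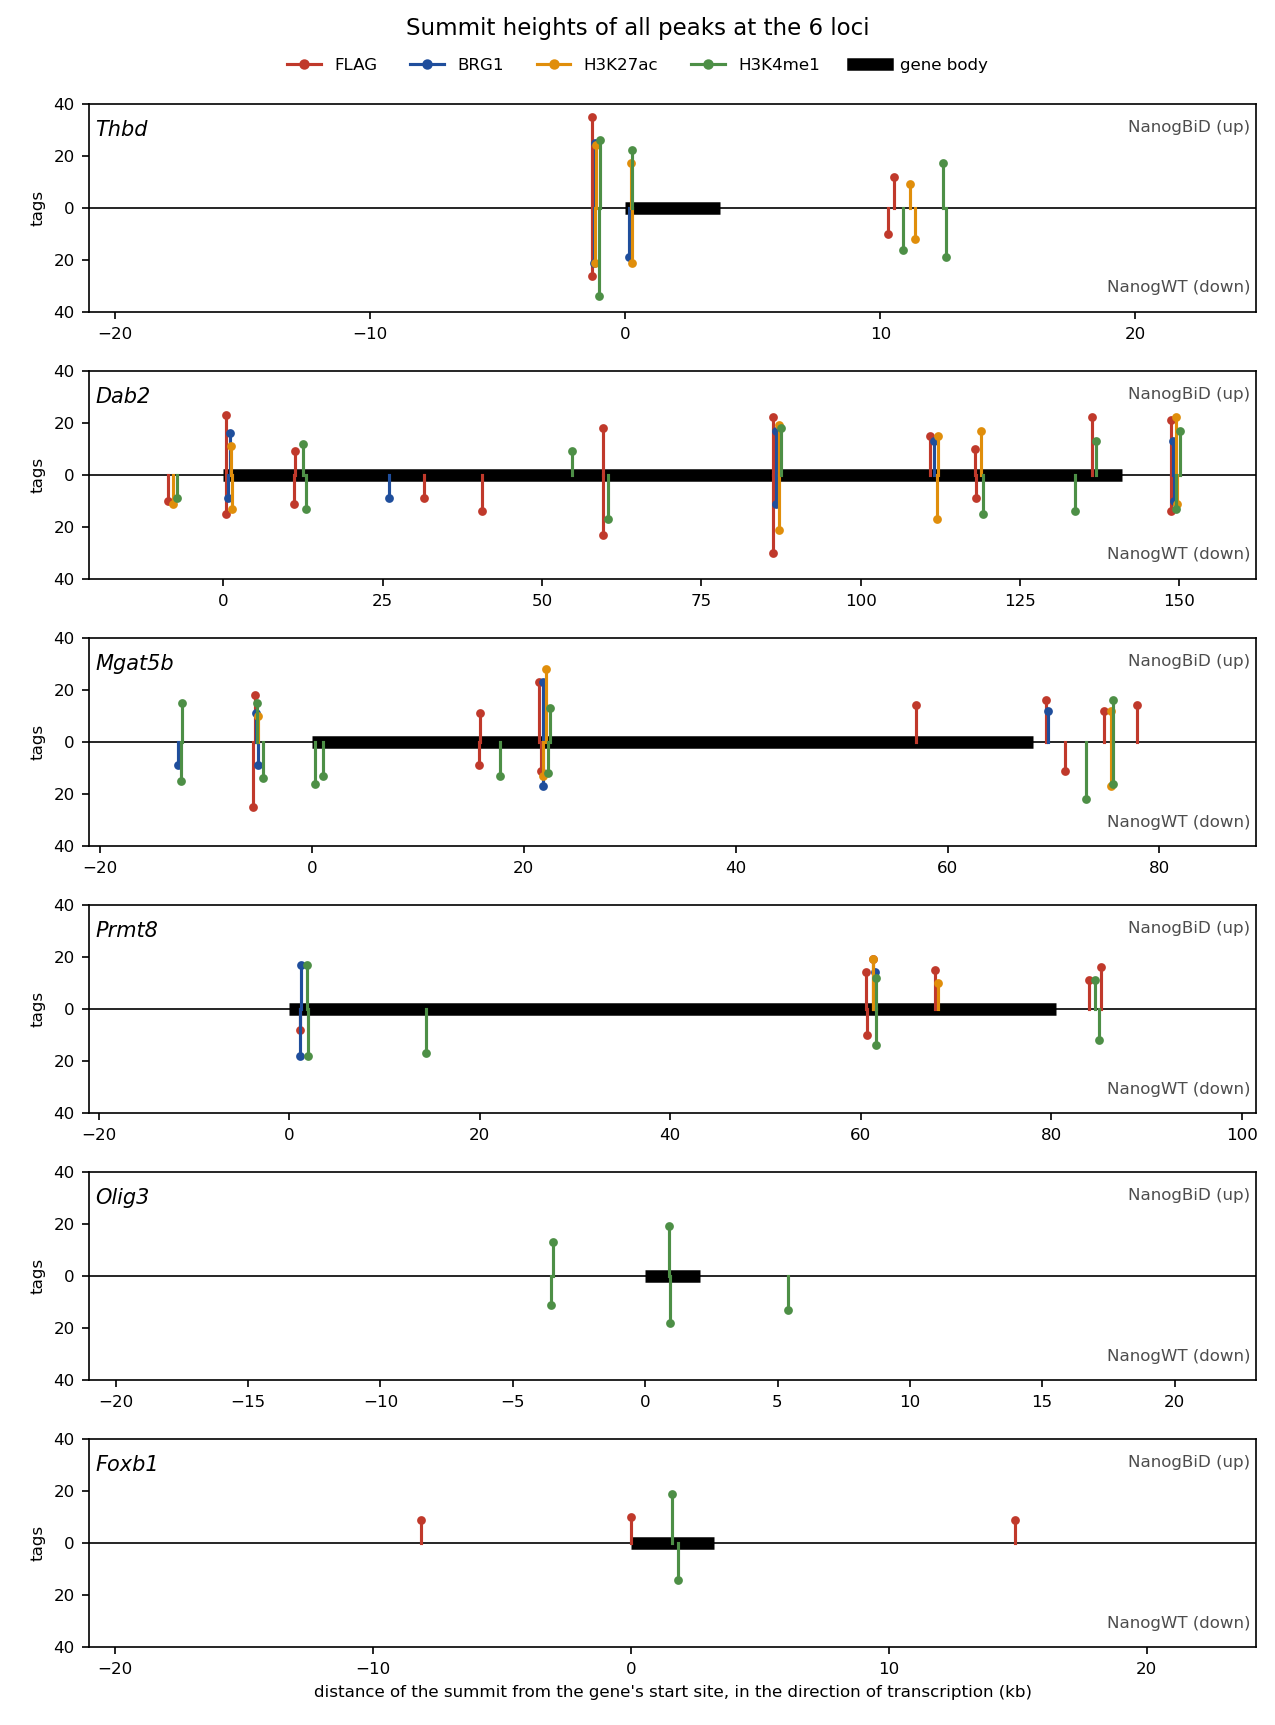
Summit height in tags (y axis, upwards for NanogBiD and downwards for NanogWT) of every peak by its distance from the start site of the gene in kb (x axis, in the direction of transcription), with the gene body as a black bar and the 4 targets in colour, set slightly apart. The tallest FLAG line is the one of 35 tags upstream of Thbd in NanogBiD, and 61 to 62 kb into Prmt8 lines of all 4 targets stand in NanogBiD where NanogWT has FLAG and H3K4me1 alone.

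Thbd had the highest FLAG summit of the 6 loci in NanogBiD, at 35 tags, while in NanogWT the highest was at Dab2, at 30 tags. All 4 targets were found at Thbd in both arms. Its main region, chr2:148405645-148409865, spanned the start site of this gene without introns, with the FLAG summits 1.15 kb upstream in NanogWT and 1.14 kb upstream in NanogBiD. FLAG reached 26 tags in NanogWT against 35 in NanogBiD (ratio 1.35, 0.787 to 2.33). Of the FLAG lists, 13.7% of peaks in NanogWT and 5.91% in NanogBiD were as high. BRG1 reached 21 and 25 tags (1.19, 0.640 to 2.24). H3K27ac had a pair of peaks in each arm, which moved in opposite directions. The one upstream was 21 tags in NanogWT and 24 in NanogBiD (1.14, 0.610 to 2.16), and the one at the start of the gene was 21 and 17. Over the whole window H3K27ac covered 5546 bp in NanogWT and 3766 bp in NanogBiD. H3K4me1 was lower upstream in NanogBiD, at 34 and 26 tags (0.765, 0.441 to 1.31). A separate H3K4me1 peak of 22 tags was called at the start of the gene in NanogBiD, and the single NanogWT peak ran across the place of both. The H3K4me1 height in NanogWT was exceeded or matched by only 0.154% of that list, and the one in NanogBiD by 1.14%. None of these intervals excludes equal heights.

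The lower number of BRG1 peaks at Thbd came from how the peaks were divided. NanogWT showed a peak of 19 tags at the start of the gene and another of 21 tags upstream, and in NanogBiD a single peak of 25 tags ran across the place of both. The length covered was 2506 bp in NanogWT and 2394 bp in NanogBiD. The rest of the window held peaks 10.5 to 12.4 kb downstream of the start site, near Sstr4, a neighbouring somatostatin receptor gene. FLAG was low there, at 10 tags and 12 tags, and no BRG1 peak was called. The FLAG stretch printed above for Thbd opens with a run of CA repeats and holds none of the motifs searched.

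Dab2 had peaks of all targets over a gene of 141 kb with 13 annotated start sites. Its highest BRG1 summit in each arm, and its highest FLAG summit in NanogWT, lay together in chr15:6385815-6387942, over internal start sites 86.9 kb into the gene. FLAG was 30 tags in NanogWT and 22 in NanogBiD (0.733, 0.403 to 1.31), whereas BRG1 was 11 and 17 (1.55, 0.683 to 3.65). H3K27ac stood at 21 and 19 tags, and an H3K4me1 peak of 18 tags was called in NanogBiD alone. FLAG was thus lower and BRG1 higher in NanogBiD at this site, each within counting error.

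At the first start site of Dab2 (chr15:6300396-6301833), FLAG was 15 tags in NanogWT and 23 in NanogBiD (1.53, 0.766 to 3.16), the highest FLAG summit of Dab2 in that arm by 1 tag. BRG1 was 9 and 16 tags (1.78, 0.740 to 4.56), and H3K27ac was 13 and 11. No H3K4me1 peak was called at this start site in either arm. Farther in, the intronic region chr15:6411033-6412382 had FLAG of 15 tags and BRG1 of 13 in NanogBiD and neither in NanogWT. H3K27ac was already there in NanogWT, at 17 tags against 15 in NanogBiD (0.882, 0.410 to 1.88). This stretch is shown above with its AP-1 letters 18 bp from the summit.

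The other Dab2 regions moved both ways. FLAG was found in NanogWT alone at 3 regions, with heights of 9, 10 and 14 tags, and in NanogBiD alone at 2, including an intronic peak of 22 tags 137 kb into the gene (chr15:6435578-6437124) with no BRG1. That peak was as high as the NanogBiD summit over the internal start sites. At the far end of the window, a region in an intron of C9, which encodes a component of the terminal complement complex, had all 4 targets in both arms. There FLAG was 14 and 21 tags, BRG1 10 and 13, and H3K27ac 11 and 22 (2.0, 0.930 to 4.57). The window of Dab2 thus includes signal that lies in another gene.

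Mgat5b had 4 FLAG peaks in NanogWT and 7 in NanogBiD, and the region with the most BRG1 was an intron. In chr11:116940028-116942328, 22 kb into the gene, FLAG was 11 tags in NanogWT and 23 in NanogBiD (2.09, 0.979 to 4.75). BRG1 was 17 and 23 tags (1.35, 0.692 to 2.70). H3K27ac was 13 and 28 tags (2.15, 1.08 to 4.53), the one interval of a shared region at the 6 loci that did not include 1. H3K4me1 was 12 and 13. The AP-1 letters of the stretch shown above lie on the FLAG summit of NanogBiD, while the NanogWT summit was 160 bp away and had no match. This gene was selected on binding in these libraries, so the difference is a description.

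In NanogBiD the intron also held the highest FLAG summit of Mgat5b, whereas in NanogWT that summit lay upstream of the gene. In the intergenic region chr11:116912770-116914351, about 5 kb upstream, FLAG was 25 tags in NanogWT and 18 in NanogBiD (0.720, 0.370 to 1.37). BRG1 was 9 and 11 tags there and H3K4me1 was 14 and 15, and an H3K27ac peak of 10 tags was called in NanogBiD alone. The FLAG summits of the arms lay 169 bp apart in this region. The summit of NanogBiD fell on SOX letters, and the one of NanogWT had no match, as the printed pair shows.

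Downstream of Mgat5b, FLAG and BRG1 appeared in NanogBiD alone at chr11:116988146-116989050, with 16 and 12 tags, and neither histone mark was called there. The start site of the gene had H3K4me1 peaks of 16 and 13 tags on either side of it in NanogWT alone, and no FLAG, BRG1 or H3K27ac peak in either arm. FLAG was also found in NanogBiD alone at 3 other regions of this window, with 12 to 14 tags, and in NanogWT alone at 1 region, with 11 tags.

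Prmt8 had an intron where BRG1 and H3K27ac were called in NanogBiD alone and FLAG was taller there. This gene too was selected on binding in these libraries, so the values are a description. In chr6:127707266-127708895, NanogBiD had FLAG of 19 tags, BRG1 of 14 and H3K27ac of 19. NanogWT had FLAG of 10 tags and no BRG1 or H3K27ac peak. H3K4me1 was present in each arm, with 14 tags in NanogWT and 12 in NanogBiD. The region therefore carried H3K4me1 in both arms and H3K27ac in NanogBiD alone. H3K27ac peaks in NanogBiD with none in NanogWT occurred in 4.11% of all gene windows, and among the 6 loci at Prmt8 alone.

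The FLAG heights of that intron are not from 1 summit. NanogBiD had a pair of FLAG peaks there, of 19 tags 61.8 kb from the start site and of 14 tags 61.1 kb from it. The NanogWT peak of 10 tags lay by the second, also at 61.1 kb, and the highest summits of the arms were 630 bp apart. The BRG1 summit of NanogBiD lay at 61.6 kb, nearer to the first, and the H3K27ac summit at 61.1 kb, nearer to the second. The stretch printed above is the first, which is AT-rich (37.6% GC) and holds none of the motifs searched.

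Near the start site of Prmt8 (chr6:127767244-127768626) the arms were alike in height. BRG1 was 18 tags in NanogWT and 17 in NanogBiD (0.944, 0.457 to 1.94), and H3K4me1 had the same heights, 18 and 17. FLAG was called in NanogWT alone, at 8 tags, a height that 98.3% of that list reached. No H3K27ac was called at this start site in either arm. The site lies in introns of Prmt8 and of Gm42738, an overlapping gene, so the signal cannot be given to either. FLAG was found in NanogBiD alone at 3 other regions of the window, with 11 to 16 tags, one of which, 68.1 kb into the gene, also had an H3K27ac peak of 10 tags in NanogBiD alone.

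Olig3 had no FLAG, BRG1 or H3K27ac peak in either arm within 20 kb, which was so for 16.8% of all gene windows. H3K4me1 was the only target called. Over its exon (chr10:19356659-19357791) H3K4me1 was 18 tags in NanogWT and 19 in NanogBiD (1.06, 0.524 to 2.13). A second peak upstream had 11 and 13 tags, and another, downstream, had 13 tags in NanogWT and was not called in NanogBiD. The nearest FLAG peaks were outside the window, 40.2 kb downstream in NanogWT and 38.3 kb upstream in NanogBiD.

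Foxb1 had FLAG peaks in NanogBiD alone, and all were low. They had 10 tags 0.181 kb into the gene, at the start site (chr9:69760423-69761092), and 9 tags both 7.96 kb upstream and 15.0 kb downstream. Such heights were reached by 90.9% and 96.8% of the NanogBiD FLAG list, and no FLAG peak of the window had a score of at least 100. FLAG in NanogBiD with none in NanogWT was found in 3.87% of gene windows. No BRG1 or H3K27ac peak was called in either arm. H3K4me1 over the gene was 14 tags in NanogWT and 19 in NanogBiD (1.36, 0.645 to 2.93), a height that 65.2% and 13.9% of those lists reached. The antisense gene B230323A14Rik overlaps Foxb1, and CUT&Tag does not assign signal to a strand.

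The 43 regions were then sorted by the arms in which each target had a peak. FLAG was in both arms at 12, in NanogWT only at 5 and in NanogBiD only at 12 of 29 regions. Across the genome 33.5% of FLAG regions were NanogBiD only and 15.5% NanogWT only. BRG1 was in both at 7, in NanogWT only at 2 and in NanogBiD only at 3, against 47.9% NanogBiD only and 9.44% NanogWT only. H3K27ac was in both at 8, in NanogWT only at 1 and in NanogBiD only at 4, against 28.7% and 14.2%. H3K4me1 was in both at 14, in NanogWT only at 11 and in NanogBiD only at 3, against 16.8% NanogBiD only and 34.1% NanogWT only. FLAG regions of NanogBiD alone were at Foxb1, Prmt8, Mgat5b and Dab2, and none was at Thbd or Olig3.

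FLAG regions were then read for BRG1. Of the 12 regions where FLAG was NanogBiD only, 2 had BRG1 on the same terms, the Dab2 intron and the site downstream of Mgat5b, and 10 had no BRG1 in either arm. That is 16.7% (exact binomial 95% interval 2.09 to 48.4), and the genome-wide share, 35.3%, lies within the interval. The 19-tag FLAG peak of the Prmt8 intron is not among the 12, because its region also held the NanogWT peak, though no NanogWT FLAG peak lay under it and it overlapped BRG1. Of the 12 where FLAG was shared by the arms, BRG1 was in both at 6, in NanogBiD only at 1 (the Prmt8 intron) and in neither at 5. Over peaks, 7 of 17 FLAG peaks overlapped a BRG1 peak in NanogWT, 41.2% (exact binomial 95% interval 18.4 to 67.1), beside 44.1% of the whole list. In NanogBiD 9 of 25 did, 36.0% (18.0 to 57.5), beside 64.7% of the whole list. The whole-list share for NanogBiD lay above that interval, which treats peaks as independent though several share a locus. Conversely, 9 of the 10 BRG1 peaks in NanogBiD and 8 of 10 in NanogWT overlapped FLAG, close to the 90.5% and 84.4% of the whole lists.

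**Figure D3:**
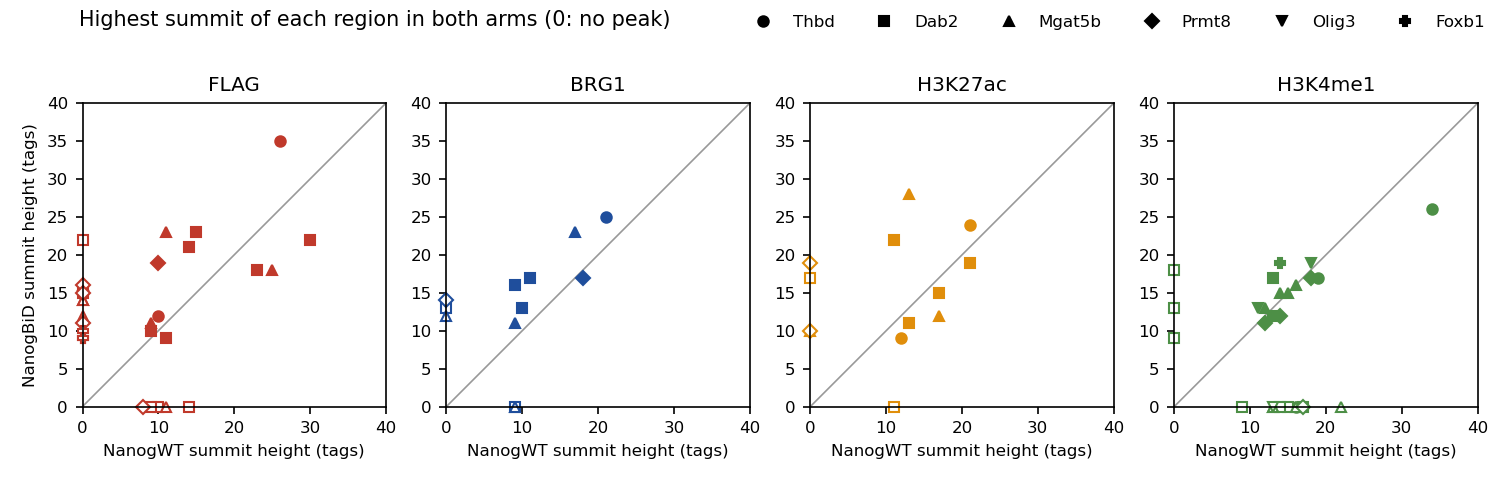
Highest summit of each region in NanogWT (x axis, tags) and NanogBiD (y axis, tags) for the 4 targets, with a marker for each gene, filled where both arms had a peak and open where only 1 did (drawn at 0 in the other), and the line of equal heights. For BRG1, 6 of 7 filled points lie above the line, and for H3K4me1 open points on the NanogWT axis (11) outnumber those on the NanogBiD axis (3).

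Where both arms had a peak in a region, heights were compared as log2 of NanogBiD over NanogWT. The median for FLAG was 0.28 over 12 regions, with 8 higher and 4 lower in NanogBiD, beside 0.15 over all shared FLAG regions. From peak scores in place of heights the FLAG median was 0.05, and for peaks with a score of at least 100 it was 0.04 over 6 regions, so the difference was mostly lost in both. For BRG1 it was 0.38 over 7 regions, with 6 higher, beside 0.14, and it was 0.66 from scores and 0.25 over the 3 regions with scores of at least 100. For H3K27ac it was -0.16 over 8 regions, with 3 higher, beside 0.08, and from scores its sign turned, to 0.07. For H3K4me1 it was 0.00 over 14 regions, with 6 higher and 6 lower, beside -0.18. Single regions ranged from -0.47 to 1.06 for FLAG and from -0.50 to 1.11 for H3K27ac, and the top of both ranges was the Mgat5b intron. At Thbd, where both NanogWT peaks of H3K27ac had 21 tags, the region counted as higher in NanogBiD from the upstream peak, though the peak at the start of the gene was lower. The one shared BRG1 region that was lower in NanogBiD was the one near the start site of Prmt8.

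H3K27ac overlapping H3K4me1, the pair used to name active enhancers, was found at 6 regions in NanogWT and 7 in NanogBiD. The counts include regions at start sites, that of Thbd in both arms and the internal ones of Dab2 in NanogBiD. Of H3K27ac peaks, 7 of 10 in NanogWT and 8 of 13 in NanogBiD overlapped H3K4me1, beside 79.8% and 71.5% of the whole lists. Thbd had 2 and 1, Dab2 2 and 2, Mgat5b 2 and 3, and Prmt8 0 and 1. The regions that had the pair in NanogBiD and not in NanogWT were the Prmt8 intron, the region 5 kb upstream of Mgat5b and the internal start sites of Dab2. At the Prmt8 and Mgat5b sites H3K4me1 was in both arms and H3K27ac in NanogBiD alone, and at the Dab2 site the reverse held. A pair of regions had the marks together in NanogWT and not in NanogBiD. They were the site downstream of Thbd near Sstr4, where H3K27ac was 12 and 9 tags and H3K4me1 of 16 tags was not called in NanogBiD, and a site 8.2 kb upstream of Dab2, where H3K27ac of 11 tags and H3K4me1 of 9 were called in NanogWT alone.

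Motif letters were counted in the 101 bases at every FLAG summit of the loci. AP-1 was found at 1 of 17 summits in NanogWT and 5 of 25 in NanogBiD (exact binomial 95% interval 6.83 to 40.7%), beside 5.82% and 7.68% of all FLAG summits of those lists. The 5 were 3 at Dab2, including the region in C9, 1 in the Mgat5b intron and 1 downstream of Prmt8. SOX letters were at 1 and 3 summits (14.9% and 16.7% of the lists), TEAD at 1 and 3 (7.40% and 6.75%), RUNX at 0 and 1 (3.14% and 3.41%), the NANOG core at 0 and 1 (4.99% and 7.32%), and the octamer at none (1.81% and 2.49%). Downstream of Prmt8 the AP-1 and TEAD letters shared 2 bases. The same AP-1 site in C9 lay on the NanogWT summit and 40 bp from the NanogBiD summit, which had moved by 42 bp.

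Related genes of each member were then examined at their start sites (2 kb either side). All 8 other members of the arginine methyltransferase family (Prmt1, Prmt2, Prmt3, Carm1, Prmt5, Prmt6, Prmt7 and Prmt9) had H3K27ac, FLAG and BRG1 in both arms, whereas Prmt8 had no H3K27ac. Of 8 glycosyltransferases related to Mgat5b, 5 had H3K27ac in NanogWT and 6 in NanogBiD, with Mgat4a the addition. Of 10 genes of the thrombomodulin and coagulation pathway, 8 had H3K27ac in both arms, and Proc and F2, which encode protein C and prothrombin of the liver, did not. Of 9 genes of the Dab2 pathway, 6 had it in NanogWT and 8 in NanogBiD. Of 9 neural basic helix-loop-helix genes, 2 and 1 had H3K27ac, and of 6 forkhead genes, 1 and 2. These are set beside 53.3% and 56.1% of all coding genes with H3K27ac, 50.4% and 51.6% with FLAG, and 10961 and 11121 of the 21938 genes with BRG1. Most of these 9 and 6 genes, which are chosen lists and not whole families, lacked H3K27ac, as Olig3 and Foxb1 did. H3K4me1 was at 8 and 6 of the 9, and at 4 and 4 of the 6, beside 58.0% and 57.2% of all coding genes. No difference from the shares of all genes was tested. In the windows of all 50 related genes, FLAG peaks were more in NanogBiD at 24 and fewer at 6, BRG1 peaks more at 24 and fewer at 5, H3K27ac peaks more at 15 and fewer at 5, and H3K4me1 peaks more at 14 and fewer at 25. Of all windows, 40.9% and 14.4% did so for FLAG, 42.1% and 10.1% for BRG1, 29.1% and 13.5% for H3K27ac, and 16.3% and 42.5% for H3K4me1.

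Markers of cell types were read from H3K27ac at start sites, as a check of the label. Of 12 fibroblast markers, 10 had it in both arms, and Thy1 and Prrx1 had it in neither. Of 6 markers of endothelium, where Thbd is best known, Tek had it in NanogWT, and Tek, Cdh5 and Kdr had it in NanogBiD, while Pecam1, Tie1 and Emcn had it in neither. Of 4 neural progenitor markers Sox1 and Nes had it in both arms. Of 4 macrophage markers Ptprc alone had it, in NanogBiD, and of 5 pluripotency markers Tdgf1 alone had it, in NanogBiD. The part of other cell types in the signal at Thbd was not tested. In such bulk samples, fewer cells with a peak and less signal per cell cannot be told apart.

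Genes whose windows were most like a member were found from the highest summit of each of the 8 lists, by Euclidean distance of log2(height + 1) over all coding genes. For Thbd they were Tfap4, Fbrsl1 and 2310011J03Rik (0.30 to 0.40), where 6 genes in all were at least as near as the last of these, and for Dab2 St6gal1, S1pr1 and Itga2 (0.37 to 0.41). For Mgat5b they were Plpp3, Sbk1 and Zkscan2 (0.38 to 0.45). For Prmt8 they were Hpn, Stum and Map3k21 (0.69 to 0.71), the least close of the 6, and all 3 had H3K27ac in NanogBiD alone, of 15 to 20 tags. For Olig3 they were Rflna, Dmrta2 and Foxi3 (0.07 each), with H3K4me1 alone. All of these neighbours were picked on the same 8 heights, so peaks called or missing as in the member follow from the selection.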

How the data were processed

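CUT&Tag was measured in 8 libraries, 1 per group. Per the study's methods and the labels, the authors trimmed reads with Trim Galore 0.6.4, aligned them to mm10 with Bowtie2 2.4.5, used SAMtools 1.16.1 to drop mitochondrial, repetitive and poorly mapped reads, merged replicates and called peaks with MACS 1.4.2, with no control library named. The authors deposited peak lists, whose score is the significance score of the caller (lowest 50.0), and summit lists, whose signal is a pileup of tags. Neither was scaled to depth, which is unknown, and a deeper library gives more and taller peaks.

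Here peaks and summits were joined by name. A peak belonged to a locus when it overlapped its window by at least 1 bp, and peaks of all lists were merged where they overlapped or touched. Ratios and shares have exact binomial 95% intervals, for counting error only. Sequences came from the GRCm38.p6 genome, the same build as mm10, and gene models from GENCODE. Computation used Python 3.11.15 and scipy 1.17.1. Merging was tested on simulated data. The regions described in full were, at each locus, those with the highest FLAG or BRG1 summit, with FLAG and BRG1 in the same single arm, or at a start site (2 kb either side), and others are given by counts and range except where a height is named in the text after it was seen. The genes most like Foxb1 are not reported here. The members, lists and rules were chosen with earlier results of these data known. Alternatives tried were scores from 100 upwards, the top 20000 peaks per list by score, windows of 10 and 50 kb, summits in the window, merging across 500 bp, centred heights and scores in place of heights.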

Additional observations from a re-analysis of the deposited data

How the results depend on the processing

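The ratios of peak numbers rest on few peaks, so their intervals are too wide to show stability. With the top 20000 peaks per list by score, FLAG had 5 peaks in each arm, the BRG1 ratio was 0.857, the H3K27ac ratio 2.0 and the H3K4me1 ratio 1.33, a setting that by construction removes the difference in list length. For scores from 100 upwards the FLAG ratio was 1.62, the H3K27ac ratio 1.33 and the H3K4me1 ratio 0.889. The BRG1 ratio was 2.0 for these scores and 1.64 for windows of 50 kb. With a score of at least 100, FLAG was in both arms at 6 regions, in NanogWT only at 2 and in NanogBiD only at 7, and BRG1 at 3, 0 and 5. With the top 20000 peaks, FLAG was in both at 4, in NanogWT only at 1 and in NanogBiD only at 1, and BRG1 in NanogWT only at 1 and in NanogBiD only at 1. Fewer peaks remain by construction in both settings. The median log2 height ratio of FLAG, 0.28 above, was 0.12 with heights centred on the genome, 0.05 from scores in place of heights and 0.04 for scores from 100 upwards, and that of BRG1, 0.38 above, was 0.24, 0.66 and 0.25. For H3K27ac it was 0.07 from scores, of the opposite sign to the -0.16 above, and for H3K4me1 it was 0.18, 0.11 and -0.08 around the 0.00 above. Of 120 recomputed differences at single loci, 91 kept their sign or stayed at 0, 11 became 0, 15 left 0, and 3 turned: H3K4me1 at Mgat5b from -4 to 2 in both stricter settings, and BRG1 at Thbd from -1 to 1 with 50 kb. Requiring the summit in the window changed no count, and a locus without peaks could not move in the stricter settings. The 91 is therefore not a measure of stability. No FLAG peak at Foxb1 was left in either stricter setting, and none at Prmt8 was left among the 20000 highest-scoring. No paired analysis was possible because there was only 1 library in a group. Depth is unknown, and a peak absent from a list means only that it was not called.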

Other observations

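Beyond their windows, within 60 kb of the gene, Olig3 and Foxb1 had regions with FLAG, BRG1 and H3K27ac peaks. These regions were looked for after the windows were seen to be nearly empty, they may belong to other genes, and no link to Olig3 or Foxb1 was tested. The study assigned regions to genes up to a distal limit that lies beyond these regions, so its selection used wider ranges than the windows here. Downstream of Olig3, 39.9 kb from its start site (chr10:19395629-19397283, intergenic), FLAG was 13 tags in NanogWT and 21 in NanogBiD (ratio 1.62, exact binomial 95% interval 0.772 to 3.51). BRG1 of 16 tags and H3K27ac of 12 were called there in NanogBiD alone, and H3K4me1 was 16 and 12 tags. H3K4me1 was thus in both arms, and BRG1 and H3K27ac in NanogBiD alone, the same arrangement of marks as in the Prmt8 intron.

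Upstream of Foxb1, at 50.8 kb and within the antisense gene B230323A14Rik, a wide region (chr9:69808825-69814655) had all 4 targets in both arms. FLAG was 22 tags in NanogWT and 37 in NanogBiD (1.68, 0.966 to 2.99), and BRG1 was 12 and 29 (2.42, 1.20 to 5.20). The region was picked after its heights were seen, so these ratios are descriptions from 1 library an arm, and nothing is read from an interval that leaves out 1. H3K27ac was 12 and 21 tags (1.75, 0.822 to 3.90) and H3K4me1 16 and 19. A further region at 58.6 kb had FLAG of 22 tags and BRG1 of 10 in NanogBiD alone. The heights of the wide region exceed every FLAG and BRG1 height within the 6 windows in NanogBiD.

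The FLAG summits of both sites in NanogBiD are shown because they are where these heights lie, as 101 bases on the plus strand of mm10 with the motif matches in capitals. At the Foxb1 site these are a pair of SOX matches (ACAATG), and at the Olig3 site a NANOG core match followed by a RUNX match.
Foxb1, 51.1 kb upstream, chr9:69812007-69812107: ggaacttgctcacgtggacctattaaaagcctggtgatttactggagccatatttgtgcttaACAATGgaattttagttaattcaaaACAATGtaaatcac
Olig3, 40.4 kb downstream, chr10:19396901-19397001: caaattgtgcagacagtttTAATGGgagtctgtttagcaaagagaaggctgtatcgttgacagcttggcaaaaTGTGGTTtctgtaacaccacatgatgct
The same SOX letters lay in the window of the NanogWT summit of the Foxb1 site, 4 and 29 bp from it, and 12 and 37 bp from the summit of NanogBiD. A match to either form of the SOX letters (ACAATG or ACAAAG) was present at 14.9% of FLAG summits in NanogWT and 16.7% in NanogBiD.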
